A study of Rattus norvegicus with 24 samples.

Results

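The genes described here belong to the families of proteins that store neurotransmitter in synaptic vesicles and fuse those vesicles with the nerve terminal membrane. They were chosen by gene symbol, with earlier results of these data known. A gene was taken if its symbol in the platform annotation began with Syt, Stx, Stxbp, Vamp, Snap2, Sv2, Rab3, Cplx, Syngr or Unc13, or if it was Syn1, Syn2, Syn3, Syp, Nsf, Napa, Napb, Bsn, Pclo, Rims1 or Rims2. This gave 74 genes with 102 probe sets, out of 10411 genes with 12783 probe sets that carried a single symbol. The probe set with the highest mean over all arrays stood for each gene. Because the choice was by name, it also took in relatives with other roles. Among them are Rab31, Rab33b, Rab34, Rab35, Rab38, Rab39a, the Rab3 regulators Rab3gap2, Rab3il1 and Rab3ip, and the synaptotagmin-like Sytl2 and Sytl4. Others with roles or sites outside the nerve terminal, described below, include Stx7, Stx16, Snap23, Snap29, Vamp8 and Syngr2. Napb was not analysed here.

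Release at a synapse rests on SNARE proteins. Vamp proteins on the vesicle zip together with syntaxins and Snap25 on the target membrane, and the ATPase Nsf with its adaptor Napa takes the spent complexes apart. Synaptotagmins sense calcium and trigger fusion, complexins clamp and prime the SNARE complex, synapsins tether vesicles in reserve, and Bsn, Pclo, Rims1 and the Unc13 proteins organise and prime the active zone. In the dorsal horn this machinery serves both the central terminals of sensory fibres and the local interneurons, but the sensory fibres have their cell bodies, and most of their messenger RNA, in the dorsal root ganglion, outside the tissue sampled.

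The tissue was the dorsal horn of the spinal cord on the operated side of Sprague-Dawley rats, hybridised to Affymetrix Rat Expression 230A arrays. The 4 groups of animals were compared, which are adult sham, adult SNI, neonate sham and neonate SNI. In SNI (spared nerve injury) 2 branches of the sciatic nerve, the common peroneal and the tibial, were ligated and cut while the sural branch was spared, and tissue was studied 7 days later. In sham animals the nerve was exposed without ligation. Adults were 8 to 12 weeks old and neonates were labelled P10, and the labels do not state whether postnatal day 10 was the day of surgery or of collection. The sample titles give the 7 days for SNI animals only, and no sham title gives a time after surgery. All animals of every group had been anaesthetised and operated on, so no naive tissue enters any comparison. Each group held 6 arrays, stated by the submitters to be biologically independent.

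Values are log2 expression after GCRMA, and a difference of 1 log2 is a doubling. Array medians ran from 5.57 to 5.67 log2, the lowest correlation between arrays was 0.984, and no arrays were identical. A probe set was tested if it exceeded 3.84 log2, the 40th percentile of all values, on at least 6 of the 24 arrays. That left 7006 genes. A gene is called higher or lower where limma's moderated test gave a two-sided Benjamini-Hochberg adjusted p under 0.05 over all probe sets tested. Precision is set by the 6 arrays of a group.

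Of the 74 genes, 52 passed the level filter and 22 did not. Of the 52, 50 lay above the filter level on all 24 arrays, and the exceptions, Rab3ip and the fast calcium sensor Syt2, lay above it on at least 23. The 22 untested genes were Unc13a, Unc13b, Unc13d, Stxbp2, Rab39a, Rab3c, Rab3d, Rab3il1, Rims2, Syn3, Syngr1, Stx3, Stx17, Syt6, Syt7, Syt8, Syt9, Syt10, Syt13, Syt17, Sytl4 and Sv2c. Of those, 18 were above the filter level on no array, and Rims2, Stxbp2, Syt17 and Unc13a were above it on at most 2. Their low signal on these probe sets does not measure the level of the gene in the tissue. The within-group SD of a tested member had a median of 0.179 log2. It ran from 0.008 log2 for Rab38 in adult SNI animals to 0.761 log2 for Syt2 in neonate SNI animals.

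The core release genes are described first. Snap25, the neuronal target-membrane SNARE, lay at 13.36 to 13.67 log2 in adult sham animals with a median of 13.49, and at 13.22 to 13.83 with a median of 13.42 in adult SNI animals. In neonates it lay at 13.14 to 13.57 with a median of 13.33 after sham surgery and at 13.13 to 13.45 with a median of 13.32 after SNI. All 4 groups overlapped. Syp, the abundant vesicle membrane protein used as a marker of terminals, lay at 13.12 to 13.36 (median 13.25) in adult sham, 12.96 to 13.32 (median 13.16) in adult SNI, 13.25 to 13.37 (median 13.33) in neonate sham and 13.06 to 13.43 (median 13.27) in neonate SNI animals. Its groups overlapped as well. Syn1, the reserve-pool synapsin, lay at 11.75 to 11.90 (median 11.80) in adult sham, 11.50 to 11.98 (median 11.61) in adult SNI, 11.76 to 12.07 (median 11.88) in neonate sham and 11.58 to 12.03 (median 11.82) in neonate SNI animals. The highest adult SNI array exceeded every adult sham array, while the median lay below the lowest of them. Vamp2, the main vesicle SNARE of central synapses, lay at 11.43 to 11.76 (median 11.61) in adult sham, 11.32 to 11.71 (median 11.62) in adult SNI, 11.71 to 12.12 (median 11.92) in neonate sham and 11.20 to 12.05 (median 11.86) in neonate SNI animals.

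**Figure D1:**
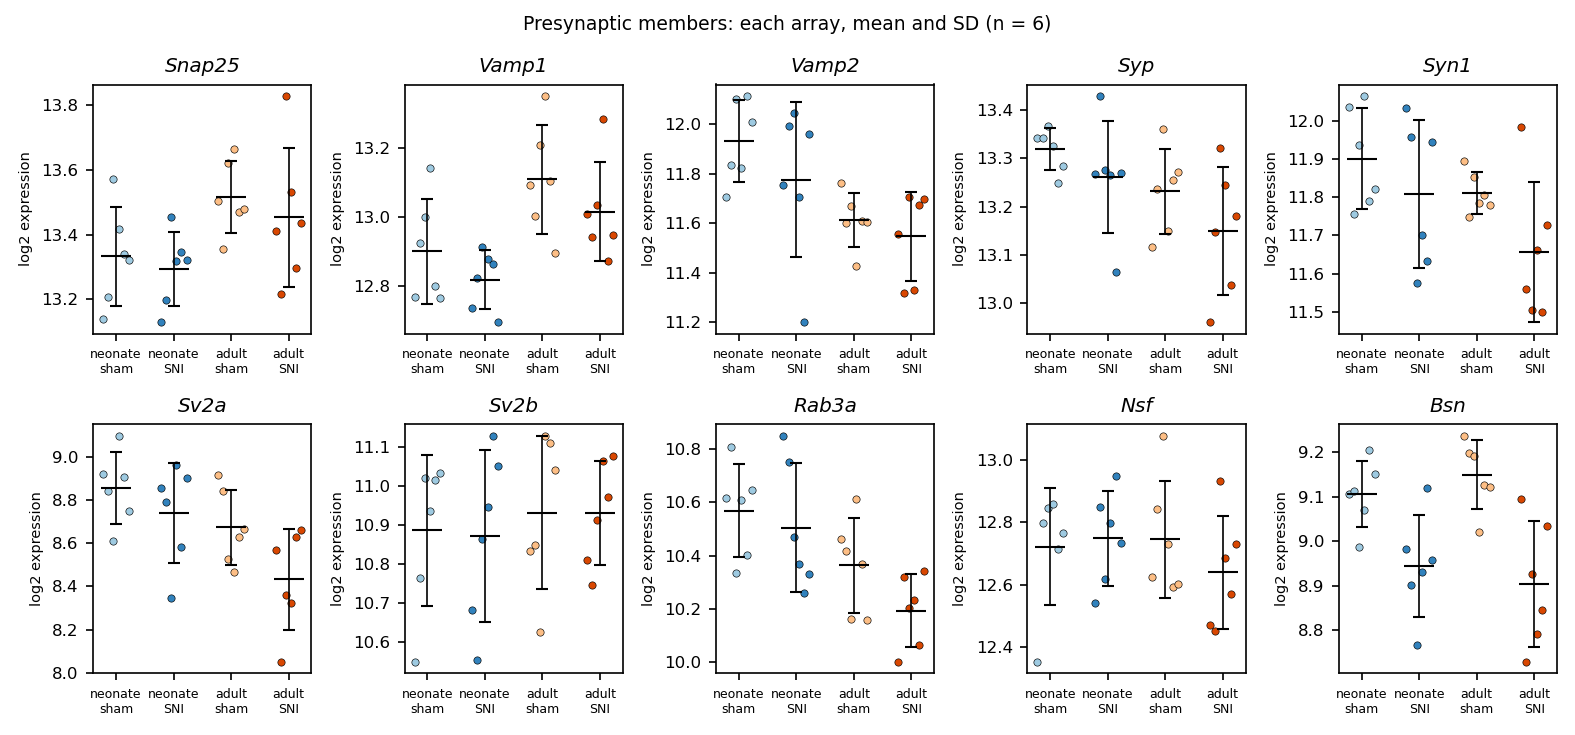
Log2 expression of 10 presynaptic genes on each array (points), with the mean and SD of the 6 arrays per group (bars); the vertical scale differs between panels and does not start at 0. The groups overlap in each panel, as for Syp, whose arrays ran from 13.12 to 13.36 in adult sham and from 12.96 to 13.32 in adult SNI animals.

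The first question was whether nerve injury changed these genes in adults. Of the 52 members tested, 1 was higher after SNI and 0 were lower in the main fit, which did not pair arrays. Bsn, not called in the main fit, was called lower after SNI under 5 alternatives and not under the rest. One of the 5 paired sham and SNI arrays of one number within each age (adjusted p = 0.0353). In the main fit the share of all tested genes called was 2.01%, made up of 1.98% higher and 0.0285% lower. The members' share of 1.92% thus lay close to the background. At an unadjusted p under 0.05 there were 4 members, Bsn, Stx7, Syn2 and Syngr2, or 7.69%, against 7.75% of all genes. For 0 members did the 6 SNI arrays lie wholly apart from the 6 sham arrays, where 1.8% of all genes did so upwards and 0.0856% downwards, 1.88% in all. The median difference of the members was -0.05 log2, beside -0.03 log2 over all genes. In whole tissue, fewer cells of a type and less RNA per cell cannot be told apart.

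Syngr2 was the member that rose. It encodes synaptogyrin 2, a vesicle membrane protein that, unlike its neuronal relatives, is found in many non-neuronal cells. Its level was 7.87 to 8.34 log2 in adult sham animals with a median of 8.03, and 8.32 to 8.82 log2 in adult SNI animals with a median of 8.51. Of the 6 SNI arrays, 5 lay above the highest sham array and the remaining one lay just below it. The difference was 0.46 log2 (SE 0.113, 95% interval 0.23 to 0.70, adjusted p = 0.0233, n = 6 per group), a 1.38-fold rise. The second Syngr2 probe set gave 0.38 log2 (adjusted p = 0.697). The call was lost without adult sham array 2, 3 or 5 (adjusted p = 0.0758, 0.0550 and 0.0622) and without adult SNI array 2 or 4 (0.0799 and 0.0541), with differences of 0.41 to 0.46 log2. It was also lost with arrays centred on their medians (0.44 log2, adjusted p = 0.0510). Markers of microglia and macrophages moved in the same arrays. All 14 tested of that list were higher in adults after SNI, with a median of 1.92 log2, and the list's mean per array ran from 6.42 to 6.99 log2 in sham and from 8.73 to 9.16 log2 in SNI animals. Their part in the Syngr2 difference was not tested.

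Among target-membrane SNAREs, 0 of the 9 syntaxins tested and 0 of the 3 Snap25 relatives were called in adults. Stx7, a late endosome syntaxin, came nearest. Its arrays ran from 10.72 to 11.14 log2 in adult sham (median 10.91) and from 11.03 to 11.34 in adult SNI animals (median 11.24), and 5 of the 6 SNI arrays lay above all sham arrays. The difference of 0.30 log2 (95% interval 0.11 to 0.48) did not pass the test (adjusted p = 0.129). Stx1a, the presynaptic plasma membrane syntaxin, differed by -0.22 log2 (95% interval -0.73 to 0.28, adjusted p = 0.929). Snap25 differed by -0.06 log2 (-0.26 to 0.13, adjusted p = 0.969) and Snap23, its counterpart in non-neuronal cells, by 0.18 log2 (-0.06 to 0.41, adjusted p = 0.803). The intervals of Snap25 and Snap23 leave out a change of 0.5 log2 in either direction, whereas that of Stx1a does not.

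Vesicle proteins were likewise not called, apart from Syngr2. The 6 vesicle SNAREs differed by -0.10 to 0.23 log2 between injured and sham adults, with Vamp1 at -0.10 (95% interval -0.27 to 0.08) and Vamp2 at -0.07 (-0.31 to 0.18). Vamp1 is the vesicle SNARE prominent in spinal cord and brainstem. Syp differed by -0.08 log2 (-0.23 to 0.06) and Syngr3, a neuronal synaptogyrin, by 0.01 (-0.16 to 0.19). Sv2a, the vesicle glycoprotein bound by the drug levetiracetam, gave -0.24 log2 (adjusted p = 0.644), and its relative Sv2b gave 0.00 (-0.23 to 0.23). The 7 tested genes of the synaptotagmin group differed by -0.22 to 0.12 log2.

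The most negative values in injured adults were those of a synapsin, Syn2, and an active zone scaffold, Bsn. Syn2, the second synapsin, ran from 8.74 to 9.03 log2 (median 8.91) in adult sham and from 8.36 to 8.88 (median 8.61) in adult SNI animals, with overlap. Its difference was -0.27 log2 (95% interval -0.50 to -0.05, adjusted p = 0.402). Bsn, the giant active zone scaffold bassoon, ran from 9.02 to 9.24 log2 (median 9.16) in adult sham and from 8.73 to 9.10 (median 8.89) in adult SNI animals, and 4 of the 6 SNI arrays lay below every sham array. Its difference was -0.25 log2 (95% interval -0.39 to -0.10, adjusted p = 0.0908). With sham and SNI arrays of one number paired within each age, Bsn passed the test (adjusted p = 0.0353). It passed likewise with 1 replicate block over all arrays (adjusted p = 0.0463). So it did without adult SNI array 1 (-0.28 log2, adjusted p = 0.0353) and with centred arrays (-0.27 log2, adjusted p = 0.0369). With no level filter the adjusted p was 0.0410. Under the other alternatives Bsn was not called. Those include the mean of a gene's probe sets and the next brightest probe set. Syn1 differed by -0.15 log2 (-0.34 to 0.03) and Pclo, the partner scaffold piccolo, by 0.07 (-0.21 to 0.34). Rims1, which links Rab3 to calcium channels, gave -0.08 log2 (-0.53 to 0.37).

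The regulators of SNARE assembly were all uncalled in injured adults. Cplx1 and Cplx2, the complexins, differed by -0.10 log2 (95% interval -0.29 to 0.09) and -0.21 (-0.69 to 0.27). Unc13c, a vesicle priming factor and the tested member of its family, gave -0.18 log2 (-0.66 to 0.30). The syntaxin-binding genes Stxbp3, Stxbp5 and Stxbp6 lay between -0.14 and 0.04 log2. Nsf and Napa gave -0.11 (-0.32 to 0.11) and -0.02 log2 (-0.32 to 0.28), and the vesicle GTPase Rab3a gave -0.17 log2 (-0.39 to 0.05, adjusted p = 0.803). Over all 52 members, 42 had a 95% interval within 0.5 log2 of 0 on both sides, and all 52 had one within 1 log2. Among all genes 79.9% had an interval within 0.5 log2. Some tested members had arrays bunched at a near-constant value, where a narrow interval in any comparison need not measure stability. Rab38 had an SD of 0.008 log2 in adult SNI animals, and Vamp5 had group medians of 4.23 to 4.24 log2.

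In neonates, 0 members were called after SNI, against 0.357% of all genes, 0.357% higher and 0% lower. At an unadjusted p under 0.05 the one member was Bsn, or 1.92%, beside 2.63% of all genes. Arrays of 0 members were separated without overlap, and 0.485% of all genes were so upwards and 0.0285% downwards, 0.514% in all. Bsn ran from 8.99 to 9.20 log2 (median 9.11) in neonate sham and from 8.77 to 9.12 (median 8.95) in neonate SNI animals, a difference of -0.16 log2 (95% interval -0.31 to -0.01, adjusted p = 1). Syngr2 ran from 8.36 to 9.07 (median 8.81) in sham and from 8.80 to 9.18 (median 8.95) in SNI neonates, a difference of 0.20 log2 (-0.03 to 0.43, adjusted p = 1). Both ranges overlapped. The largest positive values were those of Vamp8, a SNARE of endosomes and secretory granules (0.42 log2, -0.21 to 1.04), and Syt2 (0.41, -0.31 to 1.13), and their intervals included 0. In neonates 44 of 52 members had an interval within 0.5 log2 of 0, and 11 of the 14 microglia and macrophage markers were higher in the same arrays, by a median of 1.06 log2 over the list.

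**Figure D2:**
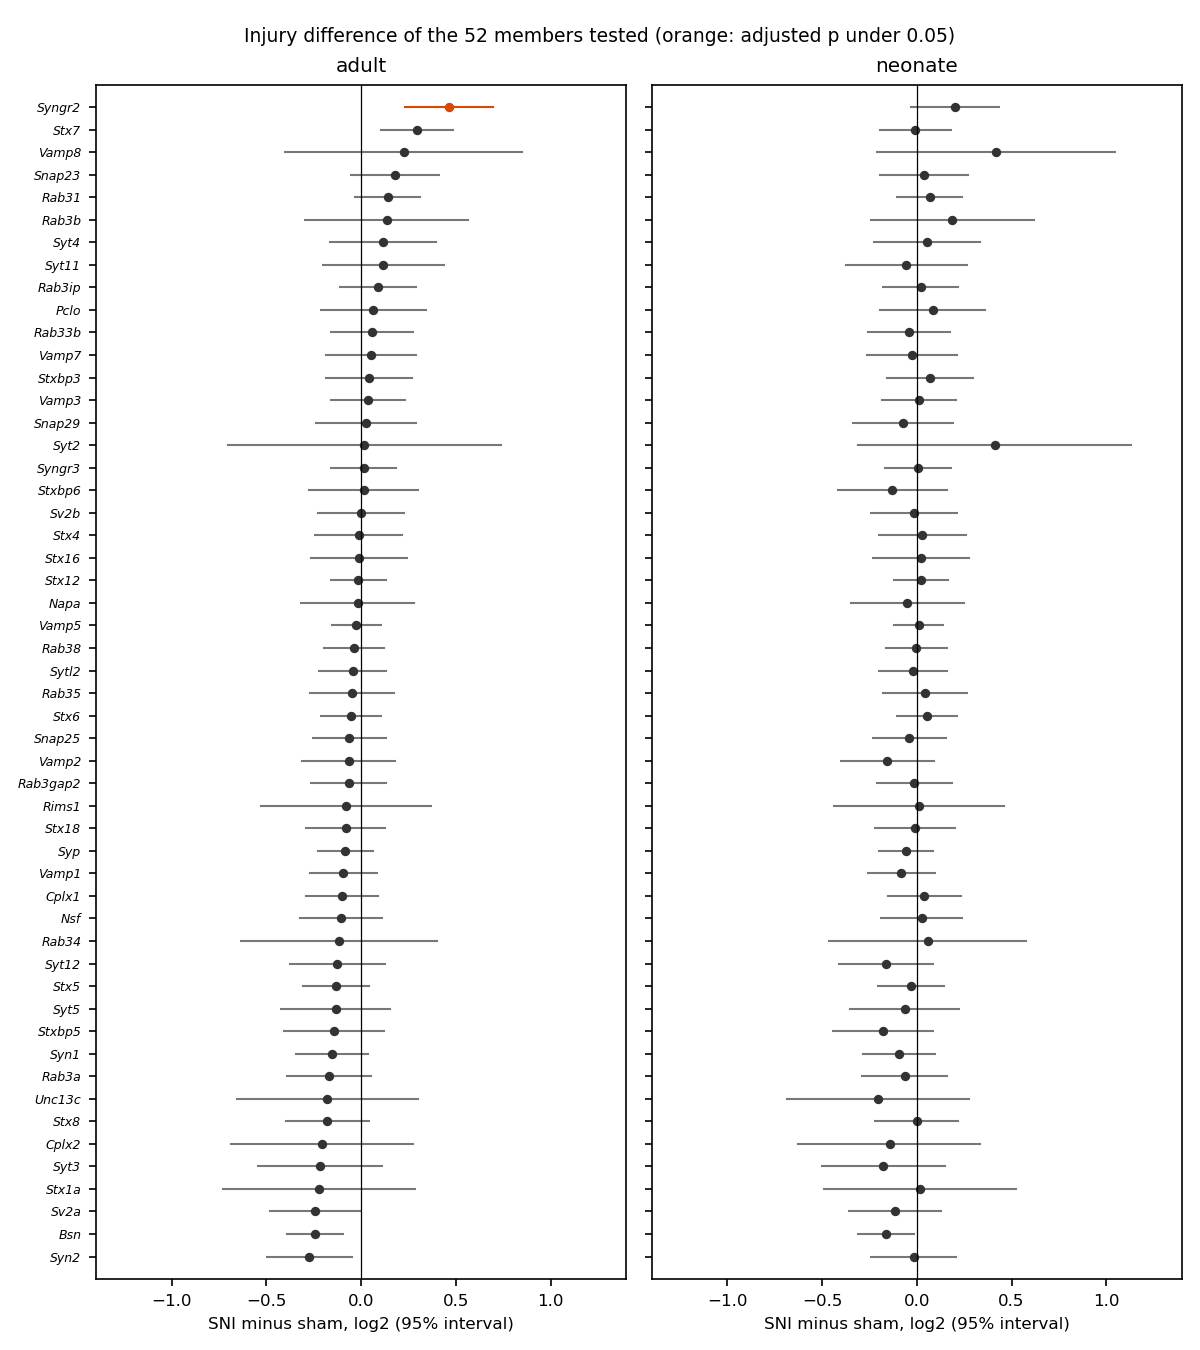
Log2 difference between SNI and sham (points) with its 95% interval (lines) for the 52 members tested, in adults (left) and neonates (right), ordered by the adult difference; 6 arrays per group. The orange point is Syngr2 in adults at 0.46 log2, the one called member, and most other intervals include 0.

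The injury effect was then compared between ages, as the difference of the 2 differences. It was called for 0 members, against 0.257% of all genes, 0.257% higher and 0% lower. At an unadjusted p under 0.05 the one member was Stx7 (1.92%, beside 2.46% of all genes). The injury difference of Stx7 was 0.30 log2 in adults and -0.01 log2 in neonates, and these differed by 0.30 log2 (95% interval 0.04 to 0.57, adjusted p = 1). For Syngr2 the adult effect exceeded the neonate effect by 0.26 log2 (-0.07 to 0.59, adjusted p = 1). The call of Syngr2 in adults alone is therefore not shown to differ from neonates. Intervals were wider here, and 38 of the 52 lay within 0.5 log2 of 0.

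Age was examined next. Between adult and neonate sham animals 10 of the 52 members were called, 4 higher in adults and 6 lower. That is 19.2% of the members, beside 16.5% of all genes. Higher calls made up 7.69% of members against 7.86% of genes, and lower calls 11.5% against 8.59%. At an unadjusted p under 0.05 there were 16 members (30.8%), against 28.9% of genes. The arrays did not overlap for 1 member that was higher in adults and 4 that were lower, where 4.54% and 4.11% of all genes were so separated, 8.65% together. The median difference of the members was 0.01 log2, beside -0.03 for all genes, and 26 of the 52 lay below 0. The members' shares stood near those of the array as a whole.

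**Figure D3:**
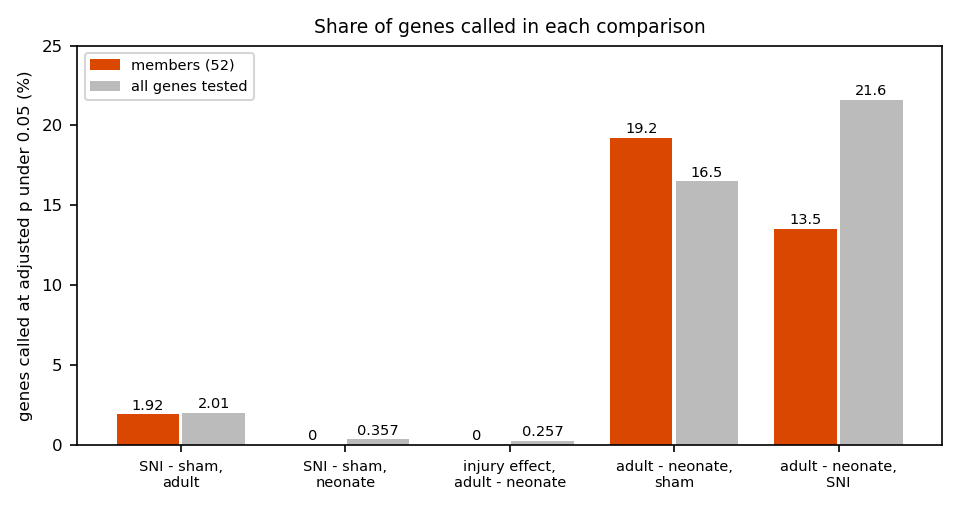
Share of genes called at an adjusted p under 0.05 (vertical axis, percent) among the 52 members (orange) and among all 7006 genes tested (grey) in each of the 5 comparisons. The shares were 1.92% and 2.01% for injury in adults and 19.2% and 16.5% for age in sham animals.

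Among the syntaxins, Stx1a had the largest age difference of all members. Neonate sham arrays ran from 6.99 to 7.68 log2 (median 7.33) and adult sham arrays from 4.64 to 6.42 (median 6.20), with no overlap. It was lower in adults by 1.38 log2 on the fitted scale (difference -1.38, SE 0.245, 95% interval -1.88 to -0.87, adjusted p = 2.9e-04), or 2.6-fold. Adult sham array 4 stood apart at 4.64 log2, and without it the difference was -1.11 log2 (adjusted p = 2.2e-04). The second Stx1a probe set, which exceeded 3.84 log2 on 16 arrays, gave -0.72 log2 and was not called (adjusted p = 0.0603). Stx16, a syntaxin of endosome-to-Golgi transport, was higher in adults by 0.37 log2 (SE 0.123, adjusted p = 0.0403), from 8.49 to 8.94 (median 8.75) in neonates and 8.66 to 9.39 (median 9.11) in adults, with overlap. That call was lost on leaving out any one of adult sham arrays 1, 2, 3, 5 and 6 or neonate sham arrays 1, 3, 5 and 6, with adjusted p of 0.0514 to 0.0956. The other 7 syntaxins tested were not called. They include the plasma membrane syntaxin Stx4 (0.22 log2, 95% interval -0.01 to 0.45) and the endosomal Stx7 (-0.10, -0.29 to 0.09), Stx8 (0.17, -0.05 to 0.39) and Stx12 (0.04, -0.10 to 0.19).

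The Snap25 family split by member. Snap23 was lower in adult sham animals, at 5.51 to 6.04 log2 (median 5.90) against 6.10 to 6.52 (median 6.21) in neonates, without overlap. Its difference was -0.39 log2 (SE 0.113, adjusted p = 0.0173). Its second probe set gave -0.10 log2 (adjusted p = 0.682), and the call was lost without adult sham array 4 (adjusted p = 0.0541) or neonate sham array 5 (0.0531). Snap29, a broadly expressed relative that acts in autophagosome fusion, ran from 8.60 to 9.28 (median 8.79) in adults and from 8.90 to 9.54 (median 9.35) in neonates. It was lower in adults by a difference of -0.44 log2 (SE 0.128, adjusted p = 0.0179), which missed the threshold without neonate sham array 2 (adjusted p = 0.0505). Snap25 itself gave 0.18 log2 (95% interval -0.01 to 0.38, adjusted p = 0.199). The neuronal member was thus not called, while the other 2 were lower in adults.

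Of the 6 vesicle SNAREs 0 were called between sham ages, although 3 had an unadjusted p under 0.05, which were Vamp1, Vamp2 and Vamp8. Vamp1 ran from 12.90 to 13.35 log2 (median 13.10) in adults and from 12.76 to 13.14 (median 12.86) in neonates, a difference of 0.21 log2 (95% interval 0.03 to 0.39, adjusted p = 0.101). Vamp2 gave a value of the other sign, -0.32 log2 (-0.56 to -0.08, adjusted p = 0.0681). Vamp2 passed without neonate sham array 1 (-0.36 log2, adjusted p = 0.0477), without neonate SNI array 5 (adjusted p = 0.0191), an array that enters this comparison through the shared estimate of spread, and in a fit of the compared groups alone (0.0263). Vamp1 passed without neonate sham array 4 (0.26 log2, adjusted p = 0.0396). Vamp8 gave 0.68 log2 (0.06 to 1.31, adjusted p = 0.136), with the array numbered 3 lowest in each of the 4 groups, and passed without adult sham array 3 (0.90 log2, adjusted p = 0.0372) and without the 4 arrays numbered 3 (0.67 log2, adjusted p = 0.0299).

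Vesicle membrane and tethering proteins held 3 of the 10 calls. Syngr2 was lower in adults, at 7.87 to 8.34 log2 (median 8.03) against 8.36 to 9.07 (median 8.81) in neonates, without overlap. The difference was -0.72 log2 (SE 0.113, adjusted p = 6.4e-05), and the second probe set gave -0.89 log2 (adjusted p = 0.00316). Syngr3 was lower in adults as well, at 10.02 to 10.44 (median 10.28) against 10.55 to 10.85 (median 10.70), a difference of -0.42 log2 (SE 0.084, adjusted p = 0.00103). Its arrays did not overlap either. Syn2 was higher in adult sham animals on the probe set that stands for it, at 8.74 to 9.03 (median 8.91) against 8.35 to 8.56 (median 8.45), again without overlap, by 0.44 log2 (SE 0.109, adjusted p = 0.00635). The other Syn2 probe set had the opposite sign (-0.34 log2, adjusted p = 0.189), and the mean of both gave 0.05 log2 (adjusted p = 0.816), so the direction for the gene rests on which probe set is read. Syp, Syn1, Sv2a and Sv2b gave -0.09, -0.09, -0.18 and 0.05 log2, and were not called. The 95% interval of Syp was -0.23 to 0.06 log2.

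Of the complexins, Cplx1 was higher in adult sham animals, at 13.72 to 14.06 log2 (median 13.76) against 13.24 to 13.82 (median 13.48), by 0.30 log2 (SE 0.093, adjusted p = 0.0285). The arrays overlapped, and the second probe set gave 0.10 log2 (adjusted p = 0.718). The call was lost without adult sham array 3 or 4 (adjusted p = 0.0539 and 0.0805) and without neonate sham array 1, 5 or 6 (0.0606, 0.0883 and 0.0692). Cplx2 gave -0.24 log2 (95% interval -0.72 to 0.24). Within the synaptotagmin group Sytl2, a synaptotagmin-like protein that binds Rab27, was higher in adults by 0.40 log2 (SE 0.086, adjusted p = 0.00179). Its adult sham arrays ran from 8.85 to 9.26 (median 8.96) and its neonate sham arrays from 8.43 to 8.89 (median 8.57), so that one neonate array, numbered 3, reached into the adult range. The synaptotagmins proper were not called in sham animals. Syt4, a synaptotagmin of dense-core and postsynaptic vesicles, gave 0.33 log2 (adjusted p = 0.0966), and passed without neonate sham array 3 (0.43 log2, adjusted p = 0.0261).

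Among the Rab genes, Rab34 was lower in adult sham animals. It is not a Rab3 protein but a GTPase of the Golgi and of lysosome positioning, and it came in through its name. Its arrays ran from 6.33 to 7.57 log2 (median 6.82) in adults and from 6.84 to 8.32 (median 8.01) in neonates, a difference of -0.96 log2 (SE 0.251, adjusted p = 0.00918). The array numbered 3 was the lowest in each of the 4 groups, and without those 4 arrays the difference was -1.05 log2 (adjusted p = 2.4e-04). Rab3a, the main synaptic vesicle Rab, gave -0.20 log2 (95% interval -0.43 to 0.02, adjusted p = 0.217). Rab3b gave 0.25 log2 (-0.19 to 0.68), but 0.05 log2 without adult sham array 4, on which it stood at 7.51 log2 against 6.12 to 6.42 on the other 5. The scaffolds and SNARE recycling factors had small values, with Bsn at 0.04 log2 (-0.10 to 0.19), Pclo at -0.02 (-0.30 to 0.26), Nsf at 0.02 (-0.19 to 0.24) and Napa at 0.04 (-0.26 to 0.34).

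**Figure D4:**
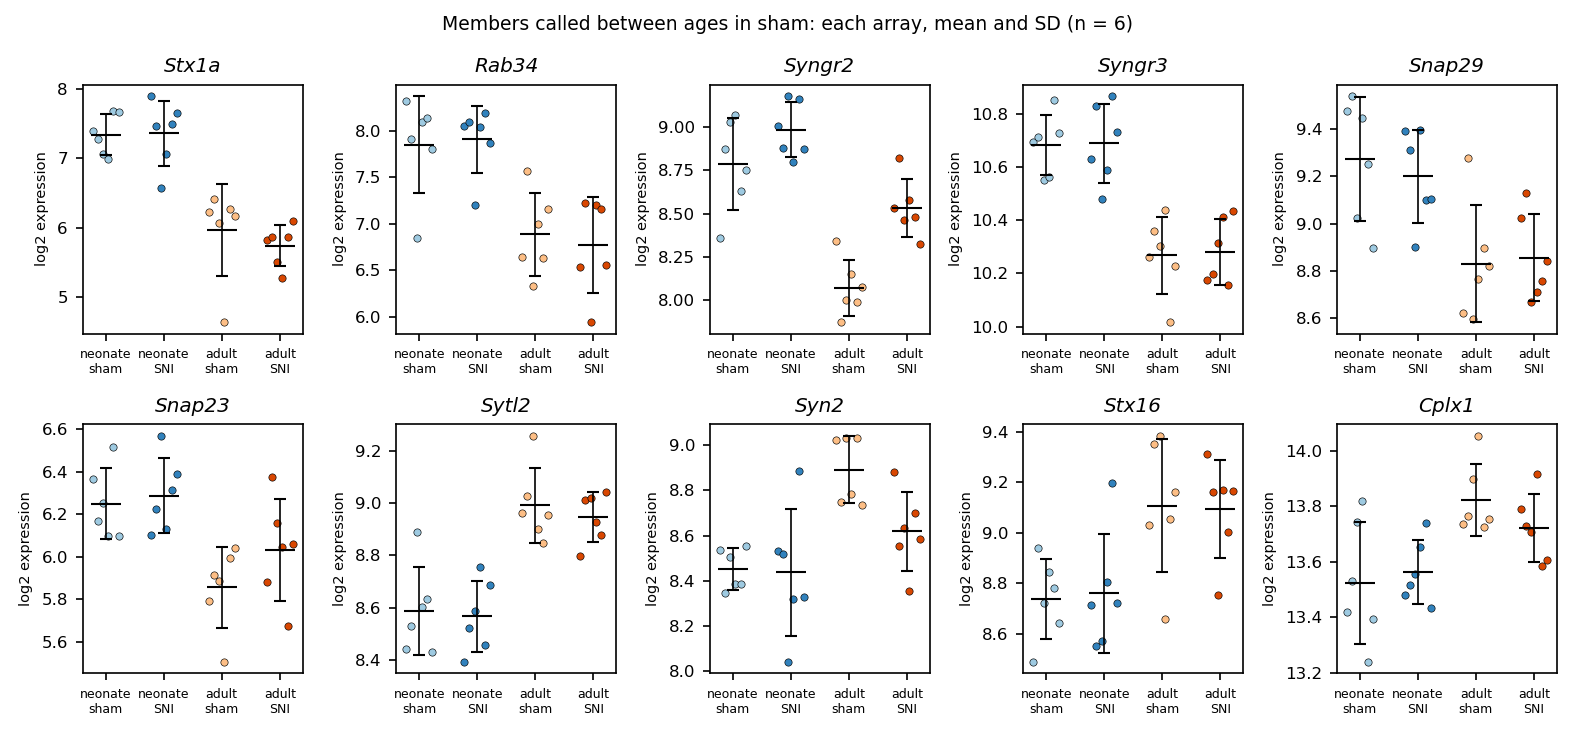
Log2 expression on each array (points) of the 10 members called between adult and neonate sham animals, with the mean and SD of the 6 arrays per group; vertical scales differ between panels and do not start at 0. Stx1a, Rab34, Syngr2, Syngr3, Snap29 and Snap23 were lower and Sytl2, Syn2, Stx16 and Cplx1 higher in adult sham animals, with Stx1a between 6.99 and 7.68 in neonate sham and between 4.64 and 6.42 in adult sham arrays.

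The same age comparison was made in the injured animals, whose 12 arrays are separate from the 12 sham arrays. It called 7 members, 2 higher and 5 lower in adults, or 13.5% beside 21.6% of all genes. Higher calls were 3.85% of members against 9.66% of genes, and lower calls 9.62% against 11.9%. With arrays centred on their medians the split was 3 higher and 4 lower, with Stx16 in place of Rab3a. An unadjusted p under 0.05 was reached by 15 members (28.8%), against 32.8% of genes. Arrays did not overlap for 1 member upwards and 2 downwards, where 4.78% and 4.32% of all genes were so separated, 9.11% together.

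In the injured animals Stx1a ran from 5.28 to 6.10 log2 (median 5.85) in adults and from 6.57 to 7.90 (median 7.48) in neonates, without overlap. The difference was -1.61 log2 (SE 0.245, adjusted p = 3.2e-05), or 3.06-fold, and here the second probe set was called too (-1.08 log2, adjusted p = 0.00426). Rab34 ran from 5.94 to 7.23 (median 6.86) in adults and from 7.21 to 8.19 (median 8.05) in neonates, and the difference was -1.14 log2 (SE 0.251, adjusted p = 0.00186). Only the edges of those ranges met. Syngr3 ran from 10.16 to 10.43 (median 10.26) in adults and from 10.48 to 10.87 (median 10.68) in neonates, without overlap, at -0.41 log2 (adjusted p = 9.6e-04). Syngr2 ran from 8.32 to 8.82 (median 8.51) in adults and from 8.80 to 9.18 (median 8.95) in neonates, at -0.45 log2 (adjusted p = 0.00515). Its ranges overlapped by 1 adult array. Sytl2 ran from 8.80 to 9.04 (median 8.97) in adults and from 8.39 to 8.75 (median 8.56) in neonates, without overlap, at 0.38 log2 (adjusted p = 0.00247). These 5 genes were called with the same sign in both age comparisons.

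The remaining calls of the injured animals were Rab3a, lower in adults (-0.31 log2, SE 0.108, adjusted p = 0.0422), and Syt4, higher in adults (0.40 log2, SE 0.135, adjusted p = 0.0385). Rab3a ran from 10.001 to 10.34 (median 10.22) in adults and from 10.26 to 10.85 (median 10.42) in neonates, and Syt4 from 9.68 to 10.40 (median 9.72) in adults and from 9.21 to 9.71 (median 9.50) in neonates. Both pairs of ranges overlapped. The Rab3a call was lost without any one of adult SNI arrays 1, 3, 4 and 5 or neonate SNI arrays 1, 2 and 3 (adjusted p = 0.0503 to 0.118). The Syt4 call was lost without adult SNI array 1 or 3 or neonate SNI array 1, 2, 5 or 6 (adjusted p = 0.0550 to 0.108), and its second probe set gave 0.35 log2 (adjusted p = 0.115). Syn2, Cplx1 and Snap23, called in sham, gave 0.18 (adjusted p = 0.262), 0.16 (0.25) and -0.25 log2 (0.116) in injured animals. Snap29 and Stx16 gave -0.35 (0.0562) and 0.33 log2 (0.055).

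Of the 10 members called in sham animals, all 10 had the same sign in injured animals and 5 were called there, which is 50%. Of the 7 called in injured animals, 71.4% were called in sham. Over all genes, 77.9% of the genes called in sham were called in injured animals and 59.3% the other way, and 1148 of 1153 kept their sign. The difference between the age effects is the same contrast as the difference between the injury effects, which was called for 0 members.

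**Figure D5:**
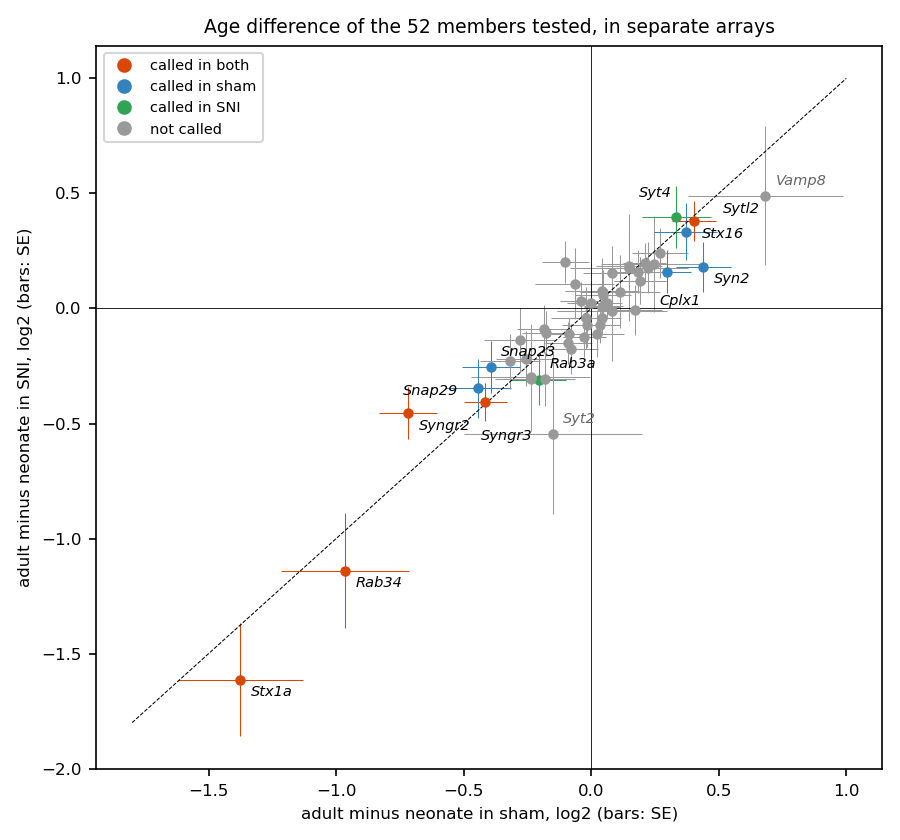
Difference between adult and neonate animals (log2) for the 52 members, in sham (horizontal axis) and in SNI animals (vertical axis), with SE as bars; the dashed line marks equal values, and colours mark the comparison in which a gene was called. Stx1a stands lowest at -1.38 and -1.61, followed by Rab34 at -0.96 and -1.14, while most members lie near 0 on both axes.

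Promoters are shown for the members called in both age comparisons, which used separate sham and SNI arrays. All 10 members called in sham kept their sign, so a kept sign does not set these genes apart. RefSeq's table for the rat assembly GRCr8 holds an entry for 59 of the 74 members, and for 3 of these 5 genes. Each sequence runs from 250 bases before to 50 bases after the annotated start, 300 bases in all, on the strand of the gene. Capitals mark GGGCGG, the core of the GC box, or its complement CCGCCC. Stx1a is taken from chr12:27306422-27306721 on the minus strand, Syngr2 from chr10:103528379-103528678 on the plus strand and Rab34 from chr10:63581292-63581591 on the plus strand. The probe sets themselves were placed on no assembly here.
Stx1a: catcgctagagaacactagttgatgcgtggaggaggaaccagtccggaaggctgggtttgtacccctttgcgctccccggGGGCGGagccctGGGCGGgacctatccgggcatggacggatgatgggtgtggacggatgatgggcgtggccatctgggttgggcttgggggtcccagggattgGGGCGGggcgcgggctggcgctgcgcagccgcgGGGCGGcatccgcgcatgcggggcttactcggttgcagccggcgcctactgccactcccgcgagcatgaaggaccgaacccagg
Syngr2: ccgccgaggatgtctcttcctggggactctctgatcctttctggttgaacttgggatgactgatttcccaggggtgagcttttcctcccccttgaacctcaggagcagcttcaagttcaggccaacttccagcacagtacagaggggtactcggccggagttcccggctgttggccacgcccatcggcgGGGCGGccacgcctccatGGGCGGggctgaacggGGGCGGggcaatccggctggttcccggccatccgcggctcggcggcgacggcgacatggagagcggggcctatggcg
Rab34: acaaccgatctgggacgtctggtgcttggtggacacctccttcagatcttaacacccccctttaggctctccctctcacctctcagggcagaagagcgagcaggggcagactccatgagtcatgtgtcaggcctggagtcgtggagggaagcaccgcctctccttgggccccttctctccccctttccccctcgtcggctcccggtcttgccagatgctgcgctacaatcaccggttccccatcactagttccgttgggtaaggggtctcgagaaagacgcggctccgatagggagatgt

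The motif GGGCGG, searched on both strands, occurred 4 times in the Stx1a promoter, 3 times in that of Syngr2 and 0 times in that of Rab34. It was present in 43 of the 59 member promoters, or 72.9%. The share was 66.6% among the promoters of 5888 tested genes and 33.1% among all 33469 promoters of the same length. At least 4 matches, as in Stx1a, were found in 11.7% of the promoters of tested genes. TATAAA, also searched on both strands, was present in 1 member promoter (1.69%, beside 6.25% of tested genes and 14.2% of all promoters), and the cyclic AMP response element TGACGTCA in 3 (5.08%, beside 3.14% and 1.83%). TATAAA and TGACGTCA were not found in the 3 promoters printed. A match is a description of letters in this window.

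Other genes of the presynaptic terminal were read from lists written with earlier results of these data known. After injury in adults, 0 of 25 tested genes of endocytosis and vesicle recycling, 0 of 4 vesicular transmitter transporters and 0 of 17 other active zone and docking genes were called, with medians of -0.04, -0.10 and -0.08 log2. An unadjusted p under 0.05 was reached by 0, 1 and 2 genes of these lists, and by 7.75% of all genes. The corresponding medians in neonates were 0.00, -0.05 and -0.10 log2, also with 0 calls in each list. There 0, 0 and 1 genes had an unadjusted p under 0.05, beside 2.63% of all genes. Between sham ages, 0 of the 25 endocytosis genes were called, and 4 had an unadjusted p under 0.05, beside 28.9% of all genes. Lower in adult sham animals were 2 of the 4 transporters and 3 of the 17 active zone genes, beside 8.59% of all genes. The transporters were Slc17a6, which loads glutamate (-0.27 log2, adjusted p = 0.0221), and Slc30a3, which loads zinc (-0.57 log2, adjusted p = 2.9e-05). The active zone genes were Ppfia4, a liprin scaffold (-1.09 log2, adjusted p = 8.9e-05), Nrxn2, a neurexin adhesion receptor (-0.45, 0.0384), and Cacna1b, the N-type calcium channel (-0.57, 0.00364). In injured animals, where 11.9% of all genes were lower in adults, 6 of the 25 endocytosis genes, 2 of the 4 transporters and 4 of the 17 active zone genes were lower, and 0 of each list were higher. The endocytosis genes included Amph, which recruits dynamin (-0.35 log2, adjusted p = 0.00597), and Ap2m1, a clathrin adaptor subunit (-0.32, 0.00339). Sh3gl1, an endophilin (-0.36, 0.0102), and the adaptor subunit Ap2s1 (-0.41, 0.0223) were also among them. The transporters were again Slc17a6 and Slc30a3, and the active zone genes were Ppfia4, Cacna1b, Cadps2 and Lin7b. Slc32a1, the transporter for GABA and glycine, gave -0.23 log2 in sham (adjusted p = 0.163) and -0.30 in injured animals (0.0541).

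Cell type markers were set beside the age differences. Between sham ages, 7.86% of all genes were higher in adults and 8.59% lower, and 28.9% had an unadjusted p under 0.05. Of 20 tested pan-neuronal genes, 2 were lower in adult sham animals and 0 higher, with a median of -0.03 log2. These were Stmn2 (-0.41 log2, adjusted p = 0.0121), a microtubule regulator of growing axons, and Nrgn (-0.65, 0.0414), which binds calmodulin. The list's mean per array ran from 11.43 to 11.76 in adults and from 11.44 to 11.71 in neonates. Of 15 tested genes of axon growth and immature neurons, 7 were lower and 1 higher, with a median of -0.35 log2. Dcx, a microtubule protein of young neurons, differed by -1.28 log2. That list's mean per array ran from 9.21 to 9.60 log2 in adult sham and from 9.63 to 9.98 in neonate sham animals, without overlap. Of the 14 tested microglia and macrophage markers, 7 were higher in adult sham animals (median 0.52 log2), and 3 of 11 astrocyte markers were higher and 1 lower. Of 11 myelin genes 2 were lower, and of 4 Schwann cell genes 1 was lower. Of 13 dorsal horn interneuron genes 2 were lower, Slc17a6 and Tac1, and 1 was higher, Cck, with a median of -0.27 log2 and 8 genes at an unadjusted p under 0.05. Of 6 primary sensory neuron genes, Pvalb was higher and Tac1 lower. Tnnc2, a troponin and the one tested of 7 skeletal muscle genes on the array, was higher in adult sham than in neonate sham animals by 2.82 log2 (adjusted p = 5.8e-07). It was lower after SNI in adults, with arrays at 5.63 to 7.18 log2 against 7.00 to 7.85 in adult sham animals (adjusted p = 0.00874). The motor neuron list had 5 genes tested, 0 called and 0 with an unadjusted p under 0.05. It varied from 4.30 to 8.67 log2 per array within adult sham animals. It was highest there on array 4, the array with the low Stx1a and the high Rab3b value. In adult SNI animals the list stood at 8.20 log2 on array 2 and 8.14 on array 4, and no Stx1a array fell under 5.28 log2. The part of cell makeup or dissection in the age differences of the members was not tested.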

How the data were processed

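Biotinylated cRNA from total RNA was hybridised, per the labels' protocols. Deposited values are the authors' log2 expression of each probe set, made with GCRMA per the submitters' processing notes, which name no version. GCRMA sets dim arrays of a probe set to a shared low value, 2.09 log2 at the lowest, which shrinks differences of dim genes. Without 57 controls, 12783 of the 15923 probe sets had 1 symbol in the platform annotation, 312 several and 2771 none, and 12748 were matched to the rat gene table. The 4 groups of 6 arrays entered a means model in limma 3.58.1 (R 4.3.3) with 20 residual degrees of freedom and a prior of 3.81, on 9638 probe sets that passed the filter, with 5 contrasts and two-sided Benjamini-Hochberg adjusted p-values over all of them. The fit was tested on simulated data, and figures used matplotlib 3.10.9 in Python 3.11.15.

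The members and gene lists were chosen with earlier results of these data known. Every member is accounted for by role. Array values are given for members called in any comparison and for an index list of presynaptic genes that the text describes, and of each other list at most the 4 genes with the smallest p in a comparison are named. Pairing was checked by correlating deviations from group means between sham and SNI arrays that bear one number. The correlations were 0.100 to 0.559 (adults) and 0.237 to 0.610 (neonates), all over 0.1, and the numbers were taken as pairs within an age. The main fit did not use these pairs, which entered among the alternatives as a block within each age. Values for differently numbered arrays are not given for comparison. What the numbers mark is not stated in the labels. Across ages 5 of 6 sham pairs (0.170 to 0.430) and 5 of 6 SNI pairs (0.149 to 0.644) exceeded 0.1, but the lowest of each, 0.014 and 0.035, did not, and arrays were not taken as paired across ages. Alternatives were the filter, centring, a floor, the choice of probe set and the groups fitted. Others were the replicate block, the prior variance, and each array left out. The replicate block was run over all arrays, which also pairs ages, and separately within each age.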

Additional observations from a re-analysis of the deposited data

Results flagged for a closer look

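In 31 members examined over 4 groups, 1 array stood far from the other 5 of its group in 8 of 124 groups, by Dixon's criterion on the gap to its nearest neighbour. For normally distributed values chance gives about 1 such array in 20 groups, which bears on any pattern among them. That rate does not hold where arrays bunch at a near-constant value, as those of Rab3b did in neonate SNI animals. Stx1a was at 4.64 log2 on adult sham array 4, against 6.07 to 6.42 on the others, and Rab3b was at 7.51 on the same array, against 6.12 to 6.42. Rab34 was at 6.84 on neonate sham array 3, against 7.80 to 8.32, and at 7.21 on neonate SNI array 3, against 7.87 to 8.19. On neonate sham array 1, Nsf was at 12.35, against 12.72 to 12.86, and Rims1 at 5.47, against 6.42 to 6.91. Rab3b was at 7.05 on neonate SNI array 1, while the other 5 arrays lay between 6.34 and 6.35. Syt11 was at 10.54 on neonate SNI array 5, against 11.03 to 11.28.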

How the results depend on the processing

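In neonates after SNI and for the difference of injury effects, 0 members were called under every alternative run, each array left out included (0 to 0). In adults after SNI the main count was 1. It was 2 with no level filter (Bsn and Syngr2), and 0 with the mean of a gene's probe sets, with the next brightest probe set, or without the 4 arrays numbered 3, an alternative chosen after seeing the data. Leaving out 1 array gave 0 to 2, with 0 without adult sham array 2, 3 or 5 or adult SNI array 2 or 4, and 2 without adult SNI array 1. For age in sham, the main count of 10 became 6 with the next brightest probe set, where Syn2 turned to -0.34 log2, and ran from 7 to 11 with 1 array left out, lowest without neonate sham array 5. For age in injured animals, leaving out 1 array gave 5 to 9. With 1 replicate block over all arrays, arrays of one number are paired across ages as well as within an age. Arrays were not taken as paired across ages, so the age counts of this setting rest on a pairing that was not accepted. Yet the same number was lowest in all 4 groups for 4.82% of tested genes and highest for 9.08%. The main age fits leave out any structure shared by array number across ages, and its source was not tested. Adult SNI gave 2 with this block (Bsn and Syngr2), and also 2 with the block within each age. With the block over all arrays, age in sham gave 18, age in injured animals 12, and neonate SNI and the difference 0. The 8 added in sham were Snap25 (adjusted p = 0.0343), Stx4 (0.0254), Stxbp3 (0.0441), Stxbp6 (0.0149), Syt4 (0.0204), Vamp1 (0.0122), Vamp2 (0.0397) and Vamp8 (2.0e-04), and the 5 added in injured animals were Snap29 (0.00724), Sv2a (0.0331), Syt5 (0.0480), Vamp1 (0.0154) and Vamp8 (0.00306). In fits of only the groups compared, Cplx1, Stx16, Rab3a and Syt4 missed the threshold (adjusted p = 0.0729, 0.0546, 0.0773 and 0.0569), as did Stx16, Rab3a and Syt4 with no filter (0.0702, 0.0639 and 0.0687), Rab3a with centred arrays (0.0577) or without the arrays numbered 3 (0.0605), and Snap23 and Cplx1 with the mean of their probe sets (0.0767 and 0.185). The cause of these shifts was not tested. Rab34, Syngr2, Syngr3 and Sytl2 passed in both age comparisons under all 34 settings run for each. Not all of these settings are separate checks. Syngr3 and Sytl2 have 1 probe set, so the choice of probe set leaves their values unchanged. Leaving out an array of a group not compared changes the estimate of spread but not the difference.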

Other observations

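Array number and value went together for some members, as they did for genes across the array. The array of the same number was lowest in all 4 groups for 2 of the 52 members, Rab34 and Vamp8, in each case number 3. It was highest in all 4 groups for 3 members, Stxbp6 and Syt4 (number 3) and Syt3 (number 4). The same number was lowest in all 4 groups for 4.82% of all tested genes and highest for 9.08%. Without the 4 arrays numbered 3, Vamp8 was called between sham ages (0.67 log2, adjusted p = 0.0299) and Syt4 likewise (0.38 log2, adjusted p = 0.0169), and 9 of the 10 members called in sham animals remained called. The exception was Stx16 (0.31 log2, adjusted p = 0.0968).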
